A study of Mus musculus with 26 samples.

Results

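The genes described here encode the nuclear-encoded subunits of respiratory complex III (ubiquinol-cytochrome c reductase), complex IV (cytochrome c oxidase) and ATP synthase, together with cytochrome c. They were chosen by name: names that begin with Uqcr or Atp5, names that begin with Cox and carry a structural subunit's number and letter, and Cyc1 and Cycs. This gave 39 of 19549 gene rows, which were grouped by symbol: 15 under ATP synthase, 15 under complex IV, 8 under complex III with Cyc1 counted there, and 1 as cytochrome c. The ATP synthase group includes Atp5sl, known as a complex I assembly factor despite its symbol. Of the 39 genes, 36 passed the filter on low counts in each fit, and Cox8b, Cox7b2 and Cox8c did not. Rows in which the names of overlapping genes had been joined were left out, so Uqcrc2, Atp5f1, Atp5j and Cox6a2 are not among the members. Cox4i1 and Cox4i2 fall outside the symbol rule. The subunit mRNAs made inside the mitochondrion were not analysed here.

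Complex III passes electrons from ubiquinol to cytochrome c, complex IV passes them from cytochrome c to oxygen, and both move protons out of the mitochondrial matrix. ATP synthase lets the protons flow back through a ring of c subunits and uses that flow to make ATP in its F1 head. Most of the subunits are short proteins translated in the cytosol and imported, whereas the catalytic core of complex IV and parts of complex III and ATP synthase are encoded by mitochondrial DNA.

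Macrophages were sorted as CD11b+ F4/80+ Ly6G- cells from PyMT tumours, raised by placing PyMT mammary tumour cells in the mammary gland of FVB females at 5 to 7 weeks of age, and every group shares this model and sort. Cycloheximide, which holds ribosomes on mRNA, was present throughout, and no macrophages from tumour-free tissue were analysed here. Each of 13 tumours gave 1 library of total mRNA and 1 of polysome-associated mRNA, pooled from sucrose gradient fractions with at least 3 ribosomes per mRNA. Small tumours weighed 467 to 841.8 mg (n = 8) and large tumours 1504 to 2245 mg (n = 5). Batch 1 held the small tumours T2, T3, T15, T16 and T19 and the large tumours T4 and T22, and batch 2 held the small tumours ER1 to ER3 and the large tumours LR1 to LR3. The labels do not spell out ER and LR and give nothing else that differed between the batches, so batch and anything that changed with it cannot be told apart.

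A total mRNA library held between 18018519 and 55609113 counts and a polysome library between 7034173 and 28257436, of which the members took 0.663% to 1.00% and 0.384% to 1.30%. All 12 macrophage markers were present, with a summed level of 40591 to 193422 CPM (counts scaled to a common library size) in total mRNA and 6322 (ER2) to 142195 CPM in polysomes. The highest summed level in a library was 3997 CPM for mammary epithelial markers, 3171 for fibroblasts, 452 for neutrophils, 409 for skeletal muscle, 211 for T and NK cells and 87.8 for B cells, and it was 26.3 CPM or less for endothelial, dendritic, erythroid and fat cell markers. Of 5 erythroid markers only 1, Alas2, had a row, so that sum says little about red cell RNA. The epithelial and fibroblast maxima were in total mRNA of batch 2, against at most 419 and 2082 CPM in that of batch 1. In polysomes these markers reached 1096 and 2462 CPM in batch 2 and 349 and 622 CPM in batch 1. The neutrophil and the T and NK cell maxima were in batch 1, and those of muscle and B cells in batch 2. Of the polysome libraries, that of ER2 had the lowest median correlation to the others, 0.708 against 0.795 or more, which is also the lowest of all 26. The total mRNA libraries of ER1, ER2 and LR1 stood apart, with median correlations to the other total mRNA libraries of 0.862, 0.754 and 0.869 and a level of Lars2, a mitochondrial tRNA synthetase gene, of 36.8, 53.4 and 47.7 CPM against 496 to 7822 CPM in the other 10. In polysome libraries Lars2 took 64384 to 244741 CPM in batch 1 and 21082 to 97172 CPM in batch 2. The counts of members called and the main genes are also given without the tumours ER1, ER2 and LR1, and the part of Lars2 in the results was not tested. In these bulk samples fewer cells of a type and less RNA per cell cannot be told apart.

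Several complex IV subunits exist in a common form and in forms of heart, muscle or testis, and the common forms had the higher levels here. Per kilobase of a representative transcript, the mean level in total mRNA was 200.3 CPM per kb for Cox7a2, the common form, and 10.1 for Cox7a1, the heart and muscle form. It was 478 CPM per kb for Cox6b1 and 9.90 for Cox6b2, the form of the testis. Over the 13 total mRNA libraries Cox7a1 had 1.30 to 8.69 CPM (median 3.40) and Cox6b2 1.02 to 7.98 CPM (median 4.18). Cox8b, the muscle and brown fat form of the smallest subunit, had 0 counts in all 26 libraries, which allows up to 0.166 CPM in the shallowest total mRNA library and up to 0.426 CPM in the shallowest polysome library, at 3 counts each and for counting error only. Cox8c and Cox7b2, both forms of the testis, had at most 4 and 26 counts in a library, with nearly all counts of Cox7b2 in the libraries of LR1.

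On the same scale, the highest mean levels in total mRNA were those of Atp5b (562 CPM per kb), Cox8a (551), Cox5a (496) and Cox6a1 (495). In polysomes the order was another: Cox6a1 came first with 2023 CPM per kb, then Cox8a with 895 and Uqcr11 with 782, while Atp5b stood at rank 18 with 285. Subunits of 1 complex, which enter it in fixed ratios, had unequal mRNA levels per length in both RNA sources. The lengths come from 1 transcript per gene, so the order depends on that choice.

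The first comparison asked which members had a larger or smaller share of the polysome mRNA than of the total mRNA of the same tumour. Of the 36 members tested, 11 were higher in polysomes, where 22.6% of 12109 genes were, and 12 were lower, where 34% were. That is 30.6% and 33.3% of the members, so the share that fell was near that of all genes. Their median log2 fold was -0.17 against -0.34 over all genes. By complex, 2 of 8 complex III genes, 4 of 12 of complex IV and 5 of 15 with an ATP synthase symbol, Atp5sl among them, were higher, and 3, 3 and 5 were lower, as was cytochrome c. Each complex held genes that rose and genes that fell.

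**Figure D1:**
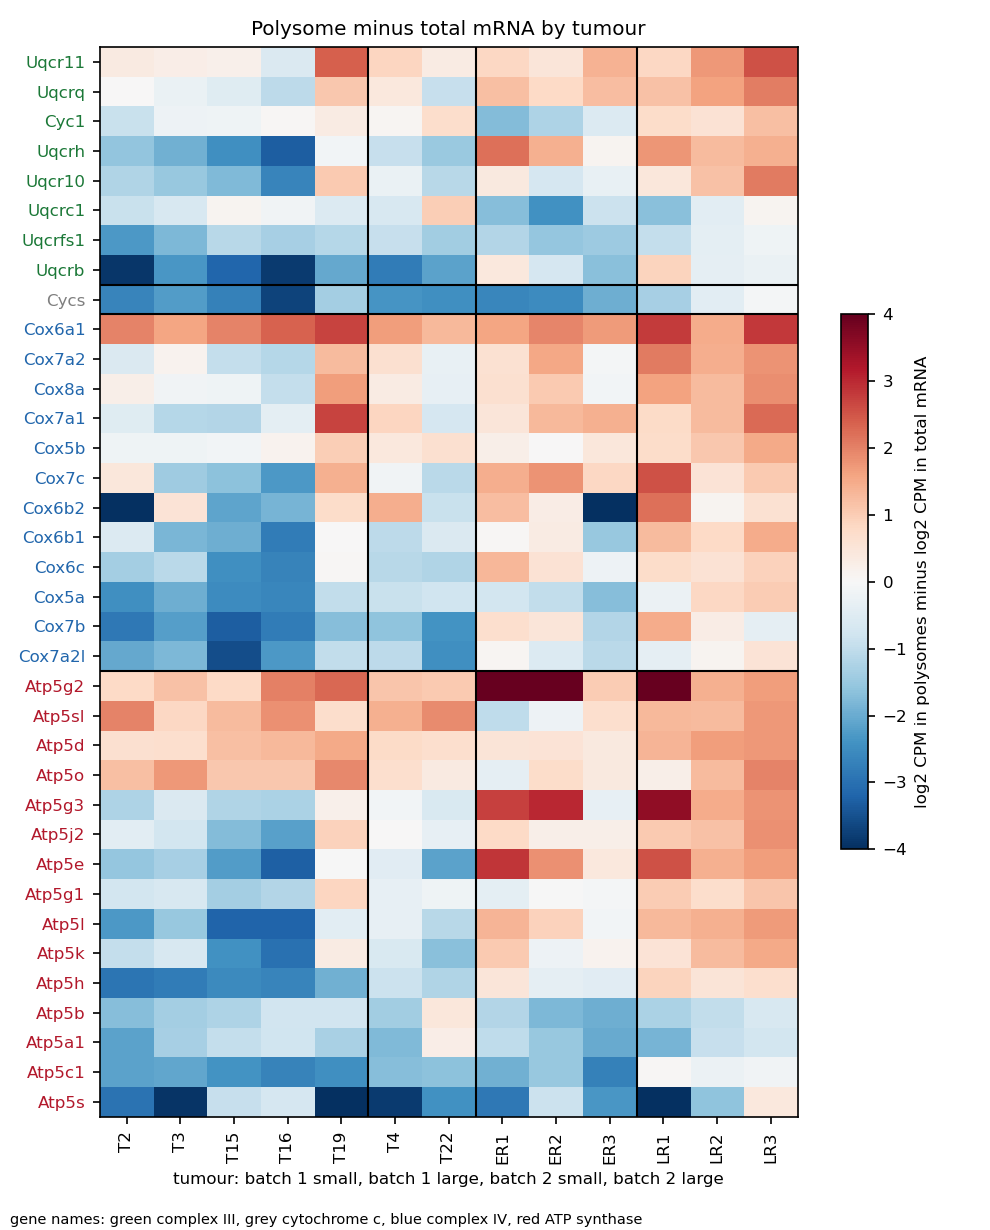
Polysome minus total mRNA level (log2 CPM, colour; values beyond 4 in either direction are drawn at 4) for the 36 members tested (rows, by complex and fold) in each of 13 tumours (columns). Cox6a1, Atp5d and Atp5g2 are higher in polysomes in 13 of 13 tumours, Cycs and Uqcrfs1 are lower in 13 of 13, and many short subunits change from lower in batch 1 to higher in batch 2.

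In complex III, 2 of the 3 redox and core subunit genes fell. Uqcrfs1 encodes the Rieske iron-sulfur protein, and its level was 76.9 to 142 CPM (median 113) in total mRNA and 18.6 to 90.0 CPM (median 49.8) in polysomes. It was lower in polysomes in 13 of 13 tumours, with a log2 fold of -1.15 ± 0.17 (SE; adjusted p = 4.5e-06), although the ranges of both RNA sources overlap. Uqcrc1, a core protein, fell by 0.66 on the log2 scale (SE 0.20, adjusted p = 0.0069), with 191 to 974 CPM (median 452) in total mRNA and 128 to 1046 CPM (median 273) in polysomes. Its fold was -0.26 with an adjusted p of 0.26 when ER1, ER2 and LR1 were left out. Cyc1, cytochrome c1, had a log2 fold of 0.02 ± 0.18 (SE; adjusted p = 0.94) and was higher in polysomes in 7 of 13 tumours.

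The small subunits of complex III divided. Uqcr11 rose by 0.92 ± 0.22 (SE; adjusted p = 0.0009), with 74.2 to 366 CPM (median 115) in total mRNA and 64.4 to 659.8 CPM (median 289) in polysomes, and was higher in 12 of 13 tumours. Uqcrq, a small subunit beside cytochrome b, rose by 0.57 ± 0.19 (adjusted p = 0.013). Uqcrb fell by 1.55 on the log2 scale (SE 0.22, adjusted p = 1.6e-06), with 51.8 to 202 CPM (median 116) in total mRNA, 6.97 to 144 CPM (median 31.3) in polysomes and lower values in 11 of 13 tumours. For Uqcrh, the hinge protein near cytochrome c1, and Uqcr10 the folds over both batches were -0.14 and -0.23 and did not pass the test.

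Cycs, which encodes the cytochrome c that carries electrons between the complexes, had 118 to 363 CPM (median 149) in total mRNA and 17.9 to 142 CPM (median 50.7) in polysomes. The polysome level was the lower one in 13 of 13 tumours, and the log2 fold was -1.93 ± 0.22 (SE; adjusted p = 5.4e-08). The difference was smallest in LR3 and LR2, at -0.09 and -0.43, and largest in T16, at -3.69. Its representative transcript has 3123 nt, of which 315 nt are coding, and RefSeq lists 3 pseudogenes named for Cycs, so reads could be divided among copies. The same limit holds for Atp5k (4 named pseudogenes), Atp5l and Uqcrh (2 each), and Atp5c1, Cox5b and Cox7c (1 each).

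In complex IV, Cox6a1 had the lowest adjusted p of all members. This gene encodes the common form of subunit VIa and lies on chromosome 5 (GRCm38, chr5:115345642-115348981, minus strand). In total mRNA it had 115 to 409 CPM (median 271) and in polysomes 441 to 2417 CPM (median 988), so that the lowest polysome library, ER2, lay above the highest total mRNA library, ER3. The log2 fold was 1.96 ± 0.19 (SE; adjusted p = 5.3e-09), with 1.90 in batch 1 and 2.02 in batch 2. The tumour values ran from 1.29 in T22 to 2.83 in LR3.

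Of the other complex IV genes, Cox5b, Cox7a2 and Cox8a rose by less, with log2 folds of 0.49, 0.59 and 0.59 (adjusted p = 0.014, 0.017 and 0.016). Cox8a had 149 to 619 CPM (median 294) in total mRNA and 132 to 972 CPM (median 386) in polysomes, and Cox5b 82.9 to 207 (median 159.9) and 74.1 to 343 CPM (median 211), with overlap in both genes. Without ER1, ER2 and LR1, Cox7a2 had a fold of 0.53 with an adjusted p of 0.064. Cox5b encodes the zinc-binding subunit on the matrix side, and its partner there, Cox5a, moved the other way: it fell by 0.91 on the log2 scale (SE 0.18, adjusted p = 0.00017), with 199.8 to 589 CPM (median 278) in total mRNA and 41.1 to 489 CPM (median 146) in polysomes. Cox7b fell by 1.07 (adjusted p = 0.00013) and so did Cox7a2l, a relative of Cox7a that joins complexes III and IV into supercomplexes, by 1.10 (adjusted p = 7.3e-05). Cox6b1, Cox6c, Cox7c, Cox7a1 and Cox6b2 did not pass the test, with folds from -0.38 to 0.58.

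In ATP synthase, the genes of the F1 head moved in both directions. Atp5a1 and Atp5b encode the α and β subunits that form the catalytic sites. Atp5b had 610.0 to 1457 CPM (median 1067) in total mRNA and 298 to 1643 CPM (median 429) in polysomes, was lower in 12 of 13 tumours and fell by 1.10 on the log2 scale (SE 0.18, adjusted p = 1.2e-05). Atp5a1 fell by 1.23 (SE 0.19, adjusted p = 7.7e-06), also in 12 of 13 tumours. The exception for both was T22, whose polysome library held 1643 CPM of Atp5b and 1168 CPM of Atp5a1, the highest polysome values of both genes.

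Atp5c1, the γ subunit that turns inside the head, fell by 1.51 (SE 0.17, adjusted p = 9.1e-08), with 189.9 to 444 CPM (median 332) in total mRNA and 57.0 to 283 CPM (median 73.1) in polysomes. Its log2 differences in LR1, LR2 and LR3 stood above the others, at 0.04, -0.23 and -0.15 against -2.69 to -1.51 in the other 10 tumours. Atp5d, the δ subunit of the central stalk, rose by 1.01 ± 0.17 (SE; adjusted p = 2.3e-05), with 169 to 460.2 CPM (median 239) in total mRNA, 301 to 813 CPM (median 489) in polysomes and higher values in 13 of 13 tumours. The ε subunit gene Atp5e, which partners Atp5d in that stalk, had a fold of 0.10 ± 0.25 (SE; adjusted p = 0.74) over both batches.

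The peripheral stalk, which holds the head still, also divided. Atp5o encodes the oligomycin sensitivity protein, and it rose by 0.89 ± 0.20 (SE; adjusted p = 0.00055) with higher values in 12 of 13 tumours. Atp5h, the d subunit, fell by 0.84 (SE 0.17, adjusted p = 0.00016). The membrane subunits Atp5j2, Atp5k and Atp5l had folds of 0.17, -0.26 and -0.23 that did not pass the test. Atp5sl rose by 1.10 (adjusted p = 0.0001) at 8.23 to 52.0 CPM (median 20.1) in total mRNA. Atp5s, the coupling factor B gene, fell by 2.38 (SE 0.61, adjusted p = 0.0017) at only 3.43 to 6.17 CPM (median 4.41) in total mRNA and 0.160 to 6.18 CPM (median 0.712) in polysomes.

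The c subunit of the proton ring is encoded by 3 genes, Atp5g1 (chr11:96068852-96075670), Atp5g2 (chr15:102662864-102672352) and Atp5g3 (chr2:73908447-73911326), all on the minus strand of GRCm38, which are known to give the same mature protein from different import peptides. Because the protein is shared, the coding sequences are alike and reads might be divided among the genes. Over the last 228 coding bases, which cover the mature protein and the stop codon, Atp5g1 and Atp5g2 were identical at 85.1% of positions, Atp5g1 and Atp5g3 at 79.8% and Atp5g2 and Atp5g3 at 78.5%. The longest run that 2 whole coding sequences shared was 21 bases, for Atp5g1 and Atp5g2. The first 60 of these bases are shown for each gene from the GENCODE M21 transcripts, 5′ to 3′, on the minus strand of GRCm38 at chr11:96073576-96073635, chr15:102665107-102665166 and chr2:73909237-73909296, with capitals where the base differs from Atp5g1.
Atp5g1: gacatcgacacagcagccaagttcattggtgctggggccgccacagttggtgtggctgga
Atp5g2: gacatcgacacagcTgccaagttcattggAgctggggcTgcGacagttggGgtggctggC
Atp5g3: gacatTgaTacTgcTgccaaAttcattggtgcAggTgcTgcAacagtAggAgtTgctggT
Each 60-base stretch lies in 1 exon, with 6 differences in Atp5g2 and 13 in Atp5g3.

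The 3 genes did not share 1 pattern. In the 10 total mRNA libraries other than ER1, ER2 and LR1, Atp5g2 had 143 to 212 CPM, and in those 3 it had 7.40, 4.21 and 12.6 CPM. Atp5g3 was also low there, with 39.1, 28.1 and 39.1 CPM against 106 to 287 CPM, whereas Atp5g1 had 172, 152 and 167 CPM, inside its range of 134 to 244 CPM elsewhere. The low values of Atp5g2 and Atp5g3 were those of the libraries with low Lars2.

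In polysomes Atp5g2 had 158 to 866 CPM (median 398), above the total mRNA of the same tumour in 13 of 13 tumours. It rose by 2.18 ± 0.34 (SE; adjusted p = 7.5e-06), and by 1.40 (adjusted p = 5.0e-06) without ER1, ER2 and LR1. Atp5g3 rose by 0.70 ± 0.25 (adjusted p = 0.018), but without those tumours the fold was 0.21 with an adjusted p of 0.4. Atp5g1 had a fold of -0.02 ± 0.18 (SE; adjusted p = 0.94), with 134 to 244 CPM (median 172) in total mRNA and 54.2 to 382 CPM (median 152) in polysomes.

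**Figure D2:**
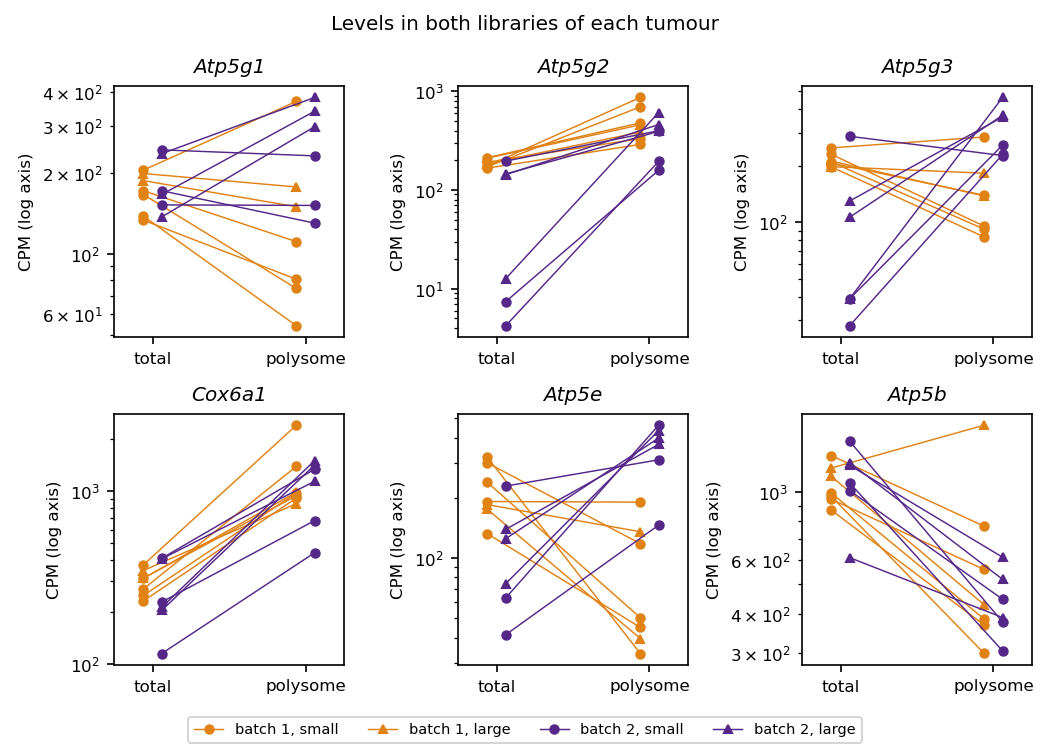
CPM (log axis) in the total mRNA and polysome library of each tumour, joined by a line, for the 3 c subunit genes, Cox6a1, Atp5e and Atp5b; circles are small and triangles large tumours, orange is batch 1 and purple batch 2. All lines rise for Cox6a1 and Atp5g2, those of Atp5e rise in batch 2 and not in batch 1, and the 3 low total mRNA values of Atp5g2 are 4.21 to 12.6 CPM.

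The sequences around RefSeq transcript starts of the members were examined because Atp5g2 and Cox6a1 led the members in polysomes. RefSeq windows (GRCm38.p6, 250 bases before and 50 after a start) were given for 29 members and, with them, for 8786 of the genes tested. The letters GCGCATGCGC, a palindromic site of NRF1, the nuclear respiratory factor known for respiratory chain promoters, were found in the windows of 4 of 29 members (Atp5g2, Atp5k, Cox6a1 and Uqcrc1) and of 2.28% of all genes. In Uqcrc1 the match lay 30 bases after the RefSeq start. RefSeq starts can differ from the GENCODE gene ends. The Atp5g2 match below lies inside the gene span given above, and the Atp5k match crosses the GENCODE end at chr5:108434448. The Cox6a1 stretch lies outside its gene span. For the other 3 the match is shown in capitals with 10 bases on either side, on the minus strand at chr15:102671070-102671099, chr5:108434430-108434459 and chr5:115349101-115349130.
Atp5g2: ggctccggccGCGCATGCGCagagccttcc
Atp5k: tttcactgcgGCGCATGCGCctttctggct
Cox6a1: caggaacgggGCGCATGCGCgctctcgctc
The ETS core CCGGAAG, read on both strands, was in 9 of 29 members and 19.2% of all genes, and the YY1 letters AAGATGGCG, also on both strands, were in 1 member, Atp5j2, and 3.44% of genes. A match describes letters only, and the polysome folds of the 4 genes with the NRF1 letters ran from -0.66 to 2.18.

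The second comparison asked whether polysome association differed between the batches. In batch 1, 5 of 36 members were higher in polysomes (20.6% of all genes) and 18 were lower (31.9%), with a median log2 fold of -0.78 against -0.48 over all genes. In batch 2, 14 members were higher (15.8%) and 6 lower (18.9%), with a median of 0.61 against -0.18. Leaving out ER1, ER2 and LR1, which leaves 3 tumours in batch 2, lowered the batch 2 counts to 8 higher and 3 lower, and those over all genes from 1911 and 2284 of 12109 to 863 and 803 of 11992, with 9 of the 20 members still called. The difference itself, batch 2 minus batch 1, was positive and past the threshold for 18 of 36 members, where 10.5% of all genes were, and negative for 0, where 6.95% were. Its median was 1.18 over the members and 0.26 over all genes. Without ER1, ER2 and LR1, 9 members passed, all higher, where 465 of 11992 genes were higher and 400 lower.

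The 18 genes were 4 of 8 in complex III, 7 of 12 in complex IV and 7 of 15 in ATP synthase. Atp5e had the largest difference. In total mRNA its level was 132 to 319 CPM (median 192) in batch 1 and 41.3 to 229 CPM (median 99.7) in batch 2, and in polysomes it was 33.3 to 190.4 CPM (median 50.3) and 146 to 462 CPM (median 384). Polysome minus total mRNA was below 0 in 7 of 7 tumours of batch 1, from -3.26 to -0.01, and above 0 in 6 of 6 of batch 2, from 0.44 to 2.87. The difference of the folds was 3.31 ± 0.51 (SE; adjusted p = 0.0001), and 2.53 (adjusted p = 0.0096) without ER1, ER2 and LR1.

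For Uqcrh the direction also turned, with 27.0 to 148 CPM (median 54.9) in polysomes of batch 1 and 160.4 to 353 CPM (median 311) in those of batch 2. Its folds were -1.63 in batch 1 and 1.34 in batch 2, a difference of 2.97 ± 0.46 (SE; adjusted p = 0.00011). With ER1, ER2 and LR1 left out, the batch 2 folds of Uqcrh, Atp5e and Atp5l were 0.86, 1.13 and 0.82 (adjusted p = 0.17, 0.089 and 0.19), so they did not pass in that batch, while the differences between batches did. Atp5l, subunit g of the membrane part, had folds of -1.54 and 1.07 (difference 2.60 ± 0.44, adjusted p = 0.00026). For Cox7b and Uqcrb the folds were -2.33 and -2.78 in batch 1 and 0.20 and -0.31 in batch 2, where neither passed the test. Their differences were 2.53 ± 0.42 and 2.47 ± 0.43 (adjusted p = 0.00022 and 0.00035). The 9 members whose batch difference passed without these 3 tumours were Atp5e, Uqcrh, Atp5l, Cox7b, Uqcrb, Atp5h, Cox6c, Atp5k and Uqcrq.

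For 6 of 36 members, Atp5e, Atp5h, Atp5l, Cox7b, Uqcrb and Uqcrh, every tumour of batch 2 lay above every tumour of batch 1 in polysome minus total mRNA, which held for 3.97% of all genes, and for 0 members the order was the reverse (2.35% of genes). The median over the 36 members was -1.30 to 0.26 in the tumours of batch 1 and -0.16 to 1.46 in those of batch 2, so the batches overlapped. T19 had the highest of batch 1 and ER3 the lowest of batch 2. Over all genes the same medians were -0.43 to -0.16 and -0.16 to 0.00.

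**Figure D3:**
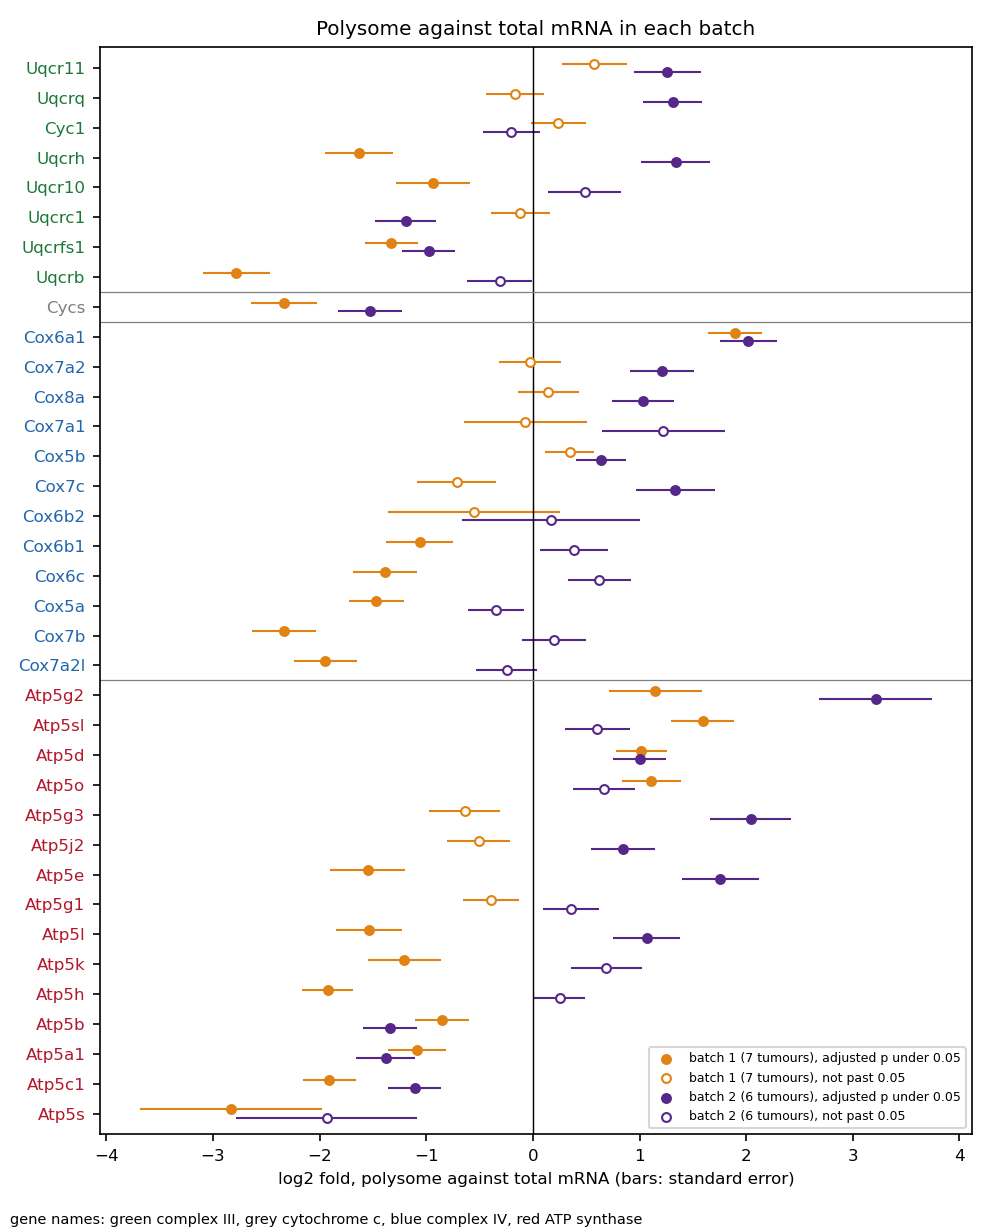
Log2 fold of polysome against total mRNA in batch 1 (orange, 7 tumours) and batch 2 (purple, 6 tumours) for the 36 members, with standard errors; filled points passed an adjusted p of 0.05. The batches coincide for Cox6a1 (1.90 and 2.02) and Atp5d and lie more than 2 log2 units apart for Atp5e, Uqcrh, Atp5g3, Atp5l, Cox7b, Uqcrb, Atp5h, Atp5g2, Cox7c and Cox6c.

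Both c subunit genes that were low in ER1, ER2 and LR1 differed between batches, and for both the difference depended on those tumours. Atp5g3 had folds of -0.64 and 2.04 (difference 2.68 ± 0.51, adjusted p = 0.0007), and without the 3 tumours a difference of 1.35 (adjusted p = 0.067). Atp5g2 had a difference of 2.06 ± 0.68 (adjusted p = 0.037), and 0.10 (adjusted p = 0.92) without them. Its log2 differences in ER1, ER2 and LR1 were 4.41, 5.52 and 5.58, against 0.79 to 2.31 in the other 10 tumours.

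The members that fell in both batches were Cycs, Uqcrfs1, Atp5a1, Atp5b and Atp5c1, and those that rose in both were Cox6a1, Atp5g2 and Atp5d. In batch 2 without ER1, ER2 and LR1, Cycs had -0.87 and Uqcrfs1 -0.71 (adjusted p = 0.15 and 0.16), and the other 6 still passed. For Atp5c1 the tumours left there differed, at -2.69 in ER3, -0.23 in LR2 and -0.15 in LR3, so its fall was mostly that of ER3. The batch 1 call of Atp5g2 was lost in 6 settings, among them the fit without T4, T22, T16 or T19, and that of Atp5b without T4. In batch 2 Atp5b had a fold of -1.34 ± 0.25 (SE; adjusted p = 0.00027) and Atp5a1 of -1.38 ± 0.28, the lowest of the ATP synthase genes with the test passed there. Atp5o and Atp5sl passed in batch 1 only, with folds of 1.11 and 1.59 against 0.67 and 0.60 in batch 2, and their batch differences did not pass the test (adjusted p = 0.48 and 0.11). Uqcrc1 passed in batch 2 only, with -1.19 against -0.12, and its difference had an adjusted p of 0.062; its batch 2 fold was -0.44 (adjusted p = 0.4) without ER1, ER2 and LR1.

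The batches were also compared within each RNA source. In total mRNA, 4 of 36 members were higher in batch 2 (11.1% of 11671 genes) and 0 were lower (5.66%). The share of members that rose, 11.1%, was that of all genes. The 4 were Uqcr11 (1.31 ± 0.28, SE), Cycs (1.01 ± 0.26), Atp5sl (1.00 ± 0.27) and Uqcr10 (0.74 ± 0.23), with adjusted p of 0.012, 0.022, 0.025 and 0.039. The call of Uqcr10 was lost in 15 of the other settings, most of them with 1 tumour left out. When ER1, ER2 and LR1 were left out, 0 members passed, as did 5 of 11581 genes. The higher count was 1 without T15 (621 of 11568 genes) or ER1 (636 of 11612) and 2 without T16 (613 of 11521). The lower count was 4 without ER3, where 880 of 11609 genes were lower.

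In polysome mRNA, 17 members were higher in batch 2 (11.1% of 10933 genes) and 0 were lower (10.3%), with a median of 0.98 against 0.11 over all genes. Atp5h had 20.7 to 107 CPM (median 50.1) in polysomes of batch 1 and 138 to 312 CPM (median 204) in those of batch 2, and rose by 1.75 ± 0.26 (SE; adjusted p = 0.00018). Uqcrh, Atp5e, Uqcrb and Atp5l rose by 2.00, 1.96, 1.93 and 1.92 (adjusted p = 0.0011, 0.0032, 0.0015 and 0.002). Cycs rose in both sources, by 1.01 in total mRNA and 1.66 in polysomes. With ER1, ER2 and LR1 left out, 10 members were higher in polysomes, where 425 of 10654 genes were.

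The members that differed between batches had short coding sequences. Of the 25 members with at most 450 coding nt, 17 (68.0%) were higher in batch 2 minus batch 1, and of all genes in that class 225 of 759 (29.6%) were. Of the 7 members above 600 nt, Atp5a1, Atp5b, Uqcrc1, Cyc1, Atp5c1, Uqcrfs1 and Atp5o, 0 were, against 7.91% of 9630 genes. The median difference of the short members was 1.45 and of all genes in their class 0.95, and for the long ones it was -0.44 and 0.19. Across the 35 members with a coding length, Spearman's rho of length and the batch difference was -0.55, and across 11091 genes it was -0.18. Genes share libraries and are not independent replicates.

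The lengths were also taken into the fit, by removing from each library the trend of level on coding length over all genes. The members higher in batch 2 minus batch 1 then numbered 7 of 35. Of all 11091 genes, 763 were higher and 1167 lower, so over all genes the lower calls then outnumbered the higher ones. Member calls on the lower side are given at the end. The 7 members were Atp5e (1.77), Uqcrh (1.83), Atp5g3 (1.85), Atp5l (1.57), Uqcrb (1.49), Atp5h (1.45) and Cox7b (1.33), as log2 differences. The differences of Uqcr10, Cox7a2 and Uqcrq moved to 0.02, 0.04 and 0.29. A short coding sequence has room for fewer ribosomes than a long one, and the part of the limit at 3 ribosomes in these values was not tested.

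**Figure D4:**
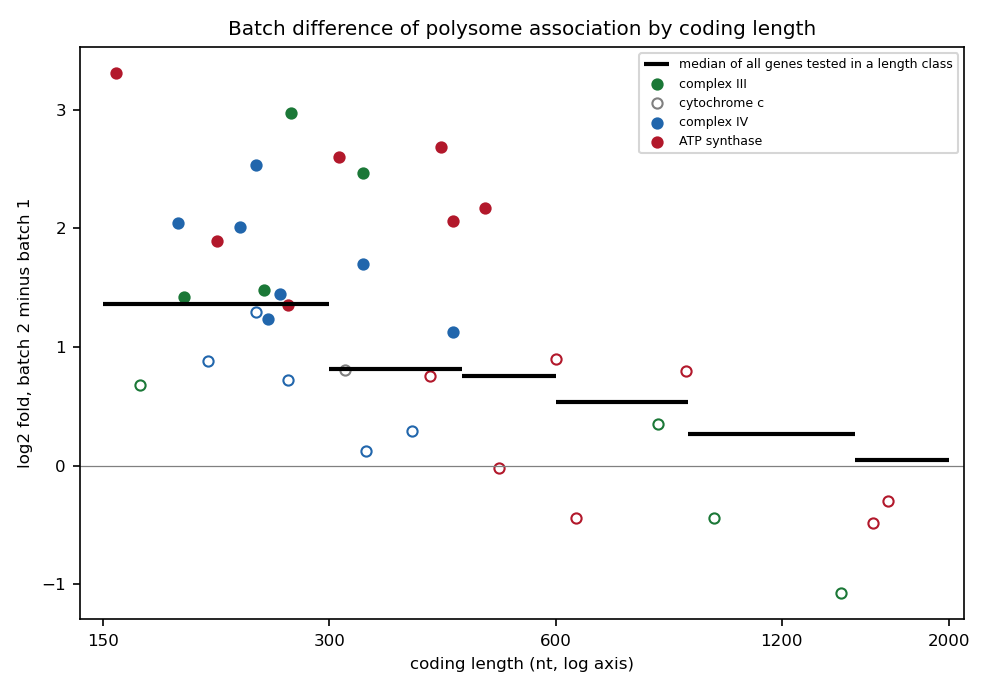
Difference of the polysome fold between batches (log2, batch 2 minus batch 1) against coding length (nt, log axis) for 35 members; filled points passed an adjusted p of 0.05, and black bars are medians of all genes tested in 6 length classes. The filled points all lie at or below 483 nt, and the members of 639 nt and more sit between -1.07 and 0.80.

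Other mRNAs of oxidative phosphorylation and translation gave values to set beside these. Of 32 subunit genes of complex I, which feeds electrons into the chain, 7 were higher in batch 2 minus batch 1 and 0 lower, with a median of 0.76. Of 71 cytosolic ribosomal protein genes, 69 were higher, with a median of 3.22, and in batch 1 61 of them were lower in polysomes. The shares over all genes were 10.5% higher and 6.95% lower in the batch difference, and 31.9% lower in polysomes of batch 1. The difference between these groups and the members was not tested.

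The third comparison asked whether tumour size went with the level or the polysome association of the members. None of the genes tested after the filter passed in any of the 3 size comparisons with edgeR (0% of 12109, 11671 and 10933 genes). With no filter, 8 of 19195 genes were higher in the polysome by size term and 3 of 14521 in polysome mRNA, and without T19 39 were higher and 3 lower of 10910 in polysome mRNA. At an unadjusted p under 0.05 stood 8 of 36 members in the polysome by size term, 0 in total mRNA and 7 in polysome mRNA, and 1385, 538 and 1362 of all genes. DESeq2 called 3 members higher in the polysome by size term (76 higher and 53 lower of all genes), 4 higher in polysome mRNA (92 and 60 of all genes) and 0 in total mRNA, and limma voom called 0 members in each. The median log2 fold, large against small, was -0.15 over the members in total mRNA and 0.52 in polysome mRNA, beside -0.03 and -0.01 over all genes, with 29 of 36 members below 0 in total mRNA and 30 of 36 above 0 in polysomes. The members share libraries and are not independent, and the share of all genes on each side of 0 is not given here.

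**Figure D5:**
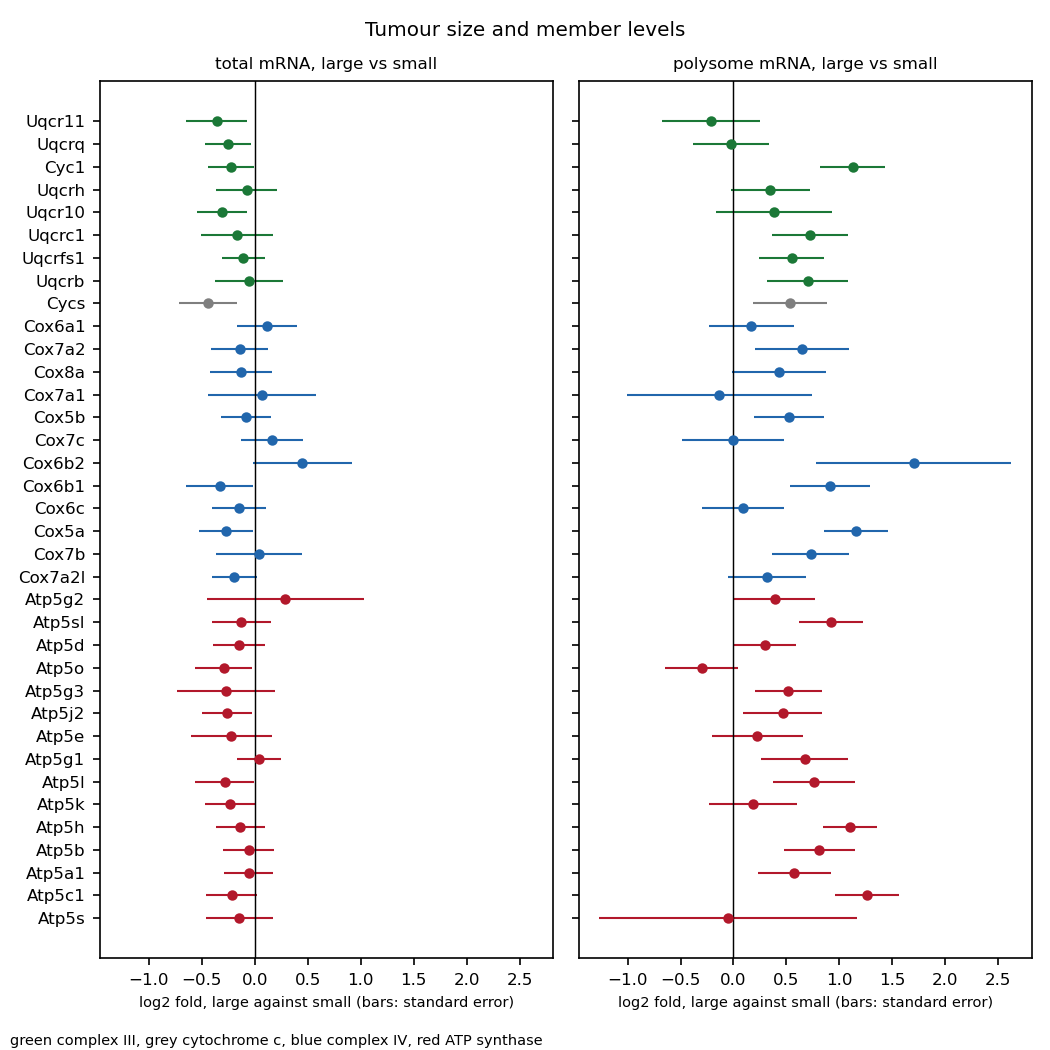
Log2 fold, large against small tumours, in total mRNA (left, 13 libraries) and polysome mRNA (right, 13 libraries) for the 36 members, with standard errors. In total mRNA 29 of 36 points lie below 0 and in polysomes 30 of 36 lie above 0, and no member passed an adjusted p of 0.05.

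In polysome minus total mRNA, 0 members had every large tumour above every small one (0.405% of genes) and 0 had every one below (0.0908%). Of the members with a mean of at least 10 CPM, Cox5a and Atp5c1 had the lowest p in the polysome by size term. In polysomes Cox5a had 41.1 to 276 CPM (median 102) in 8 small tumours and 156, 146, 403, 489 and 402 CPM in T4, T22, LR1, LR2 and LR3, and in total mRNA 225 to 589 CPM (median 278) and 289, 251, 477, 278 and 199.8 CPM. The ranges overlap in both sources, and the size term was 1.44 ± 0.37 (SE; adjusted p = 0.3). For Atp5c1 it was 1.28 ± 0.35 (adjusted p = 0.3). In polysomes Atp5c1 had 57.0 to 95.7 CPM (median 69.8) in small tumours and 97.2, 115, 250.1, 283 and 190.4 CPM in the same 5 large ones. The 3 high values belong to large tumours of batch 2, in whose polysome libraries the members took 1.22% to 1.30% of counts, against 0.384% to 0.993% in the other 10. The lowest large-tumour value, 97.2 CPM in T4, was just above the highest small-tumour value, 95.7 CPM. The share of all genes separated in this way in polysomes was not counted. On the negative side were Atp5g2 (-0.68 ± 0.68) and Cox6a1 (-0.03 ± 0.37), with adjusted p of 0.74 and 0.98.

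Within 1 RNA source, the members with the lowest p in polysomes were Atp5h (1.10 ± 0.26, adjusted p = 0.13) and Atp5c1 (1.26 ± 0.30, adjusted p = 0.13) on the positive side and Atp5o (-0.30 ± 0.35) and Uqcr11 (-0.21 ± 0.46) on the negative side. In total mRNA they were Cox7c (0.16 ± 0.29) and Cox6a1 (0.11 ± 0.28) on the positive side and Cycs (-0.44 ± 0.27) and Uqcr10 (-0.31 ± 0.24) on the negative side, with adjusted p of 0.86 to 0.96. For Cycs the total mRNA of large tumours held 123, 131, 345, 191 and 128 CPM, inside the range of 118 to 363 CPM (median 190.4) in small tumours.

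Subunits outside the symbol rule were read for comparison. Cox4i1, the common form of subunit IV, had 884 CPM on average in total mRNA and 2334 CPM in polysomes and rose by 1.42 ± 0.20 (SE; adjusted p = 2.1e-06), while Cox4i2, its oxygen-regulated form, had 1.41 and 1.01 CPM. Ndufa4, now counted as a complex IV subunit, fell by 0.89 on the log2 scale (adjusted p = 0.00019) with a batch difference of 1.88 ± 0.37 (adjusted p = 0.00092). The joined rows of Uqcrc2 with Pdzd9, Atp5j with Gabpa and Atp5f1 with Wdr77 had folds of -2.45, -1.66 and -1.43 (adjusted p = 7.3e-10, 3.7e-08 and 8.4e-08), and their reads cannot be divided between the genes.

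Genes that serve these complexes gave further values, and their lists were chosen with results of these data known. Over all genes 22.6% were higher in polysomes and 34% lower, and the lists were not tested against these shares. All 3 carriers that exchange ATP, ADP and phosphate across the inner membrane fell: Slc25a5 by a log2 fold of -1.80, Slc25a4 by -1.46 and Slc25a3 by -0.57 (adjusted p = 2.9e-08, 5.2e-08 and 0.0065). Of 15 complex IV assembly genes tested, 3 rose and 4 fell, near the shares of all genes. Among those that fell, Lrpprc, which stabilises mitochondrial mRNA, had -2.49 and Cox20 -1.63 (adjusted p = 7.2e-05 and 2.5e-05). Of 5 complex III assembly genes 1 fell, Uqcc1, and of 3 ATP synthase assembly genes 2 fell, with Tmem70, which helps to build the c ring, at -2.28 (adjusted p = 9.9e-08).

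Of 9 transcriptional regulators of mitochondrial genes tested, 2 rose in polysomes, the coactivator Pprc1 (1.69) and Yy1 (1.56), and 5 fell, among them Tfb2m (-2.20) and Gabpb1 (-1.56), with adjusted p of 5.3e-07, 1.3e-05, 4.3e-06 and 3.2e-05. The shares over all genes were 22.6% higher and 34% lower. Over the 7 tested genes of the list of further complex IV and ATP synthase subunits, which holds Cox4i1 and Ndufa4, 1 rose and 2 fell, the second of them Atpif1, the inhibitor of ATP hydrolysis by the synthase (-0.80, adjusted p = 0.00076).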

How the data were processed

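Each of the 13 tumours gave 1 total mRNA and 1 polysome library, made by Smart-seq2. The authors deposited, for each library, whole-number counts per gene, and a log2 value for 10472 of 19549 rows that differed from log2 of the count by a constant within 0.0072. Only the counts were analysed. HISAT, HISAT2, limma and mm10 stand in the submitters' processing notes with no roles. The counting program, the annotation and the strand setting: not given in the sources used here.

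Counts were scaled by TMM and tested with edgeR 4.0.16 (robust quasi-likelihood, filterByExpr, Benjamini-Hochberg adjustment over all genes tested, threshold 0.05) in R 4.3.3. Polysome against total mRNA was tested over 26 libraries with tumour as a block and the batch and size terms, weighting batches and sizes equally. Both libraries of a tumour come from 1 sorted population, and their deviations correlated with a median r of 0.249 (lowest 0.0373), against -0.0166 with other tumours. Deviations were taken from the mean of each size class within a batch, which by itself lowers r between tumours of a class. T4 and T22, alone in their class, therefore have the same r, 0.368. Size (divided at 1000 mg) and batch were tested together in the 13 libraries of each RNA source. A standard error is the log2 fold over the square root of F, so it depends on the edgeR spread estimate. Levels are TMM-scaled CPM, and tumour differences use a prior count of 1. The code was tested on simulated data. Replicates are separate tumours, and depth limits low genes such as Atp5s most.

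The members and all gene lists were chosen with earlier results of these data known. Members named with values were up to 5 a direction with the largest called fold and a mean of at least 10 CPM, up to 2 a direction by p where none was called, and a panel of core subunits, c subunit genes and tissue forms. Of the other lists up to 4 genes with the lowest p were named. Transcript and coding lengths come from GENCODE M21, and 35 of 36 tested members and 91.6% of genes had a coding length. Alternatives were RLE and upper-quartile scaling, CPM without TMM, no filter or a mean of at least 10 CPM, DESeq2 1.42.0, limma voom 3.58.1, no tumour block, the coding length trend removed, no batch term, single batches, log2 weight, and each tumour left out. Leaving out ER1, ER2 and LR1 together was chosen after seeing the data. A further sequence comparison is not reported here.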

Additional observations from a re-analysis of the deposited data

Results flagged for a closer look

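The polysome fold differed between batch 2 and batch 1 for 18 members in edgeR's test of the difference itself, and all 18 were higher in batch 2. In log2 units the differences were 3.31 for Atp5e, 2.97 for Uqcrh, 2.68 for Atp5g3, 2.60 for Atp5l, 2.53 for Cox7b and 2.47 for Uqcrb. They were 2.18 for Atp5h, 2.06 for Atp5g2, 2.05 for Cox7c, 2.01 for Cox6c, 1.89 for Atp5k and 1.70 for Cox7a2l. The smaller ones were 1.48 for Uqcrq, 1.45 for Cox6b1, 1.42 for Uqcr10, 1.36 for Atp5j2, 1.23 for Cox7a2 and 1.12 for Cox5a. Without ER1, ER2 and LR1, the 9 that no longer passed were Atp5g2, Atp5g3, Atp5j2, Cox5a, Cox6b1, Cox7a2, Cox7a2l, Cox7c and Uqcr10. Over all settings the call was lost in 14 for Cox7a2, 13 for Uqcr10, 12 for Cox5a and 12 for Atp5g2. It was lost in 10 for Cox6b1 and 8 for Atp5j2. Most of these settings left out 1 tumour.

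Single libraries stood far from the others of their group for 9 of 30 members checked in 4 groups, 9 of 120 checks, where chance alone gives about 5%. In total mRNA of the 5 large tumours, LR1 was lowest for 3 genes: Atp5g2 at 12.6 CPM, Cox7b at 51.5 CPM and Cox7c at 57.5 CPM. LR3 was lowest there for Atp5b, at 610.0 CPM. In total mRNA of the 8 small tumours, ER2 was lowest for Cox6a1 at 115 CPM, T2 was lowest for Cox5b at 82.9 CPM, and ER3 was highest for Atp5d at 460.2 CPM. In polysomes of the large tumours, T22 was highest for Atp5a1 at 1168 CPM and T4 was lowest for Cyc1 at 163 CPM. ER2 and LR1 are among the total mRNA libraries with low Lars2.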

How the results depend on the processing

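Counts of called members kept within 1.5 times of the reported count in 151 of 168 comparisons with another setting and in 226 of 234 with 1 tumour left out. Many reported counts were 0, as in all size comparisons, and a 0 that stayed 0 is among those kept. The totals therefore say little about the larger counts. The 18 calls of the batch difference fell to 11 without the tumour block, 7 with the length trend removed and 9 without ER1, ER2 and LR1. For single members, 1005 of 1097 and 1408 of 1521 kept direction and side of the threshold. The cause was not tested except where named.

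Without the replicate block by tumour, the batch difference called 11 members higher and 0 lower (all genes: 850 and 760 of 12109). The other polysome counts stayed within 1.5 times. They were 10 and 12 over both batches (all genes: 2656 and 3610), 4 and 16 in batch 1 (2454 and 3234) and 11 and 6 in batch 2 (1457 and 1892). With the block and the coding length trend removed, batch 1 had 10 members higher (all genes: 2854 of 11091). The batch difference then had 7 higher and 1 lower (763 and 1167 of 11091). The batch difference called 1 member lower with RLE scaling (all genes: 1013 of 12109), with the filter at 10 CPM (935 of 8004) and with limma voom (1031 of 12109). It called 2 with DESeq2 (1435 of 12109). DESeq2 called 3 members higher in the polysome by size term (all genes: 76 higher, 53 lower of 12109), 4 higher in polysomes of large tumours (92 and 60 of 10933) and 1 lower in total mRNA of batch 2 (1329 of 11671), where limma voom called 2 lower (1104 of 11671). Without ER1, ER2 and LR1, which leaves 3 tumours in batch 2, the counts were 8 higher and 3 lower in batch 2 (all genes: 863 and 803 of 11992, from 1911 and 2284 of 12109), 9 higher in the batch difference (465 of 11992, from 1266), 0 in total mRNA of batch 2 (5 of 11581, from 1292) and 10 in its polysomes (425 of 10654, from 1209).

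With 1 tumour left out, the batch difference had 12 to 20 members higher and 0 to 1 lower (1 without T4, LR3 or ER3). Of the 11894 to 12307 genes tested, 837 to 1314 were higher and 548 to 1000 lower. Polysomes of batch 2 had 12 to 21 members higher (905 to 1421 of 10726 to 11165 genes). Total mRNA of batch 2 had 1 to 5 members higher and 0 to 4 lower (4 without ER3). There 613 to 1666 of 11501 to 11913 genes were higher and 203 to 1121 lower. Polysomes of large tumours had 0 to 1 members higher (1 without T19, where 39 of 10910 genes were).

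Some uncalled size values changed sign. The polysome by size term of Cox6a1 was 0.0075 with no filter, 0.12 with log2 weight, 0.57 in batch 2 alone and -0.19 to 0.20 with 1 tumour left out, above 0 without T4, T22, LR2, T16 or T19. In polysomes Uqcr11 had 0.066 with limma voom, 0.26 with no batch term and -0.42 to 0.24 with 1 tumour left out (0.24 without T19), and Atp5o 0.14 in batch 2 alone. In total mRNA Cox7c had -0.029 with no batch term, -0.18 in batch 1 alone and -0.011 (without LR2) to 0.31 with 1 tumour left out. Cox6a1 there had -0.019 without ER1, ER2 and LR1, and -0.039 (without ER2) to 0.39 with 1 left out, with -0.035 without LR2. Depth limits Atp5s, Cox7a1 and Cox6b2, whose levels were a few CPM.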
